A study of Mus musculus with 9 samples.

Results

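The 41 mitosis genes described here are a list of genes with known roles in cell division, taken by symbol from the 18303 genes counted in RNA of skin wound macrophages. The list is defined by function and symbol, and uses no measured value as a criterion. It was, however, chosen with earlier results of these data known. The cells came from wild-type C57BL/6J mice, 14 days (5 libraries) and 4 days (4 libraries) after skin injury, and both groups were sorted as CD45+CD11b+F4/80+ cells straight from digested tissue, without further treatment. The age and sex of the mice are not given in the sources used here, and the labels do not say whether each library is a different animal. The p-values therefore describe spread among libraries, part or all of which may be technical. The comparison of day 14 with day 4 asks how the late phase wound macrophage differs from the early phase one.

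Mitosis is driven by CDK1 with its A- and B-type cyclins. Kinases of the Aurora, Polo and NEK families then build the spindle, condensins fold the chromosomes, a checkpoint at the kinetochores holds back the anaphase-promoting complex until all chromosomes are attached, and centralspindlin sets up the cleavage furrow. Most of these genes are transcribed late in the cell cycle, so their transcripts are commonly used to mark dividing cells. Macrophages of a tissue can be replaced by incoming monocytes or by division in place. In bulk RNA, fewer dividing cells and less of a transcript per dividing cell cannot be told apart.

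The libraries held between 17982633 and 50445171 counts at day 14 and between 26479017 and 57809918 at day 4. The counts of day 14 replicate 5 stopped at Aplp2 on chromosome 9 (31149557 to 31211848, GRCm38), and X and Y lack counts there as well. Among chromosome 9 genes well counted elsewhere (50 counts or more in all 8 remaining libraries), 482 of 482 past Aplp2 and 0 of 102 before it were at 0 there. Ccnb2, Ttk, Kif15 and Kif23 lie beyond that point, so their day 14 values come from 4 libraries, as do those of Kif4, Cenpi, Smc1a, Tfdp2, Pola1, Ccr2, Ccr3 and Xcr1, which are no members of the list. Among the transcripts of the gated proteins, Emr1 (F4/80) and Ptprc (CD45) were called higher at day 14, with log2 fold changes of 0.38 and 0.39, and Itgam (CD11b) lower, with -0.44. The 10 macrophage markers summed to 20884.3 to 22885.1 CPM (counts relative to the library total, scaled with TMM) at day 14 and to 19405.0 to 22074.9 CPM at day 4, Lyz2 giving the most. Of these 10 markers, 2 were higher and 4 lower: besides the gated genes, Fcgr1 had 128.9 to 160.8 CPM at day 14 and 289.7 to 327.8 CPM at day 4, Cd68 432.7 to 465.5 and 498.5 to 668.2 CPM at these times, and Mertk 160.1 to 218.1 and 216.2 to 273.2 CPM.

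All 41 mitosis genes passed the filter on low counts and were tested, and no gene had fewer than 33 counts in a library used for it. At an adjusted p under 0.05 in edgeR's quasi-likelihood test, 26 of the 41 genes were higher at day 14 and 1, Aurka, was lower, while 14 did not pass. Of all 13322 genes tested, 16.1% were called higher and 14.9% lower. The log2 fold change over the 41 genes ranged from -0.47 to 1.4 with a median of 0.55, and was positive for 37, while the median over all genes tested was 0.01. For 18 of the 41 genes every day 14 library was above every day 4 library, which was the case for 13.0% of all genes tested, and for Aurka every day 14 library was below every day 4 library. The largest differences were those of Kif15, Mki67, Kif23 and Nusap1, as the plot of fold changes shows.

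**Figure D1:**
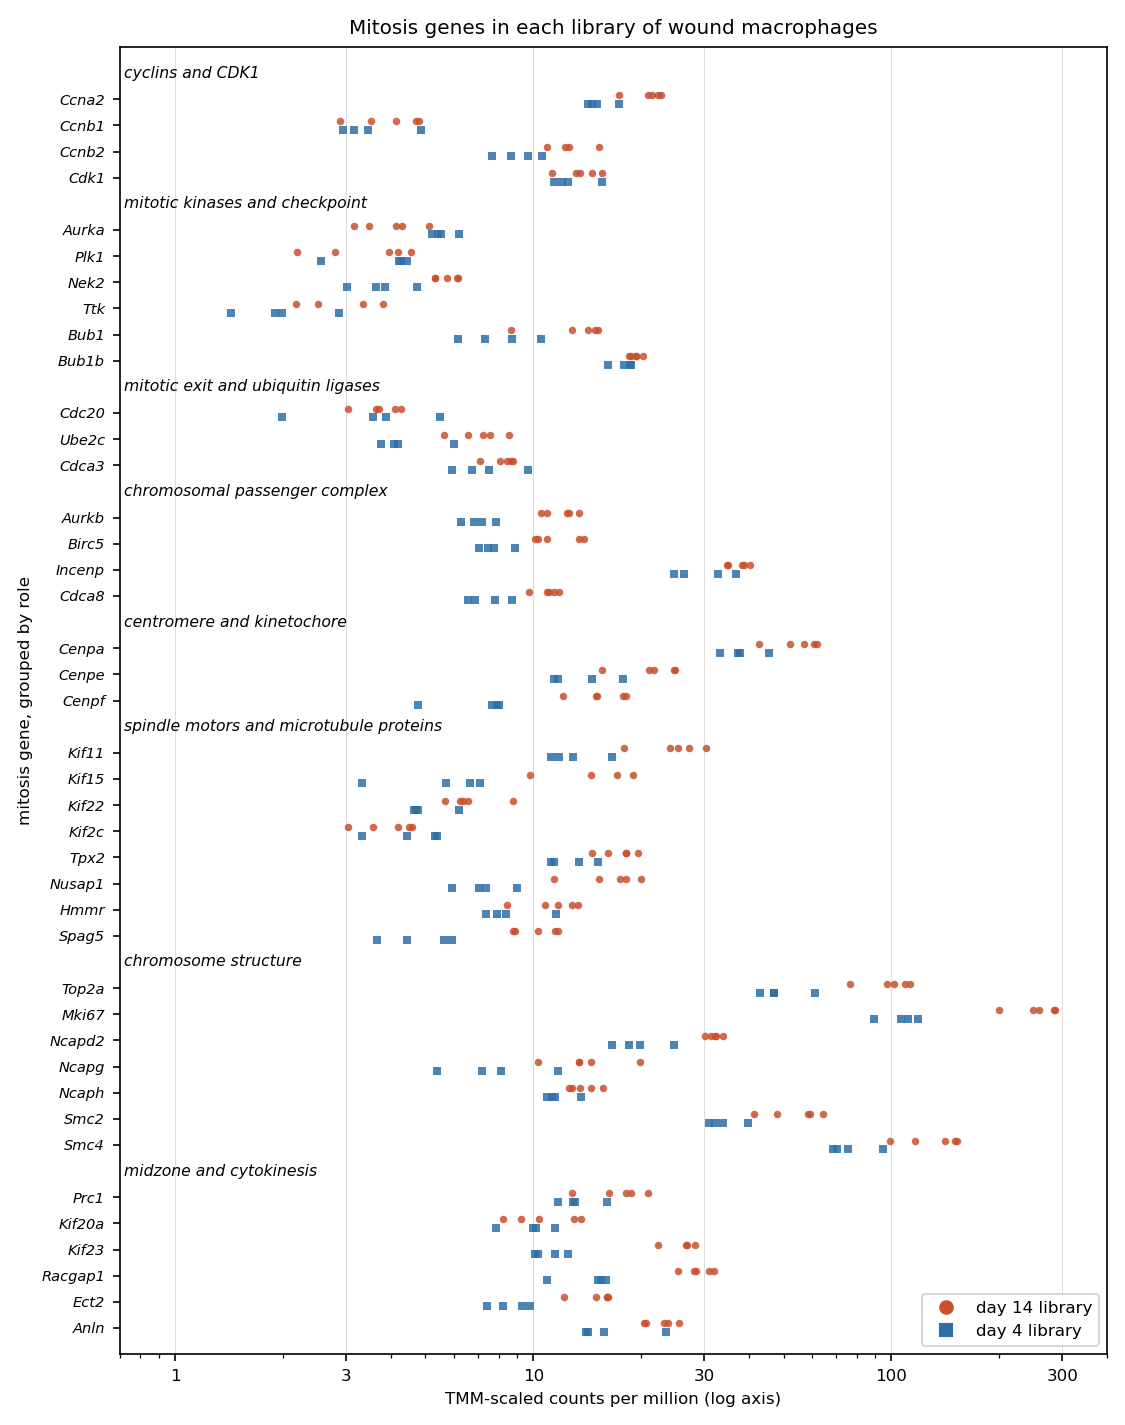
Each row is a mitosis gene, grouped by role, and the horizontal log axis gives TMM-scaled CPM. Circles are the day 14 libraries (5, or 4 for Ccnb2, Ttk, Kif15 and Kif23) and squares the 4 day 4 libraries; for Mki67 the day 14 libraries lie at 199.2 to 285.5 CPM and the day 4 libraries at 89.6 to 118.3 CPM.

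**Figure D2:**
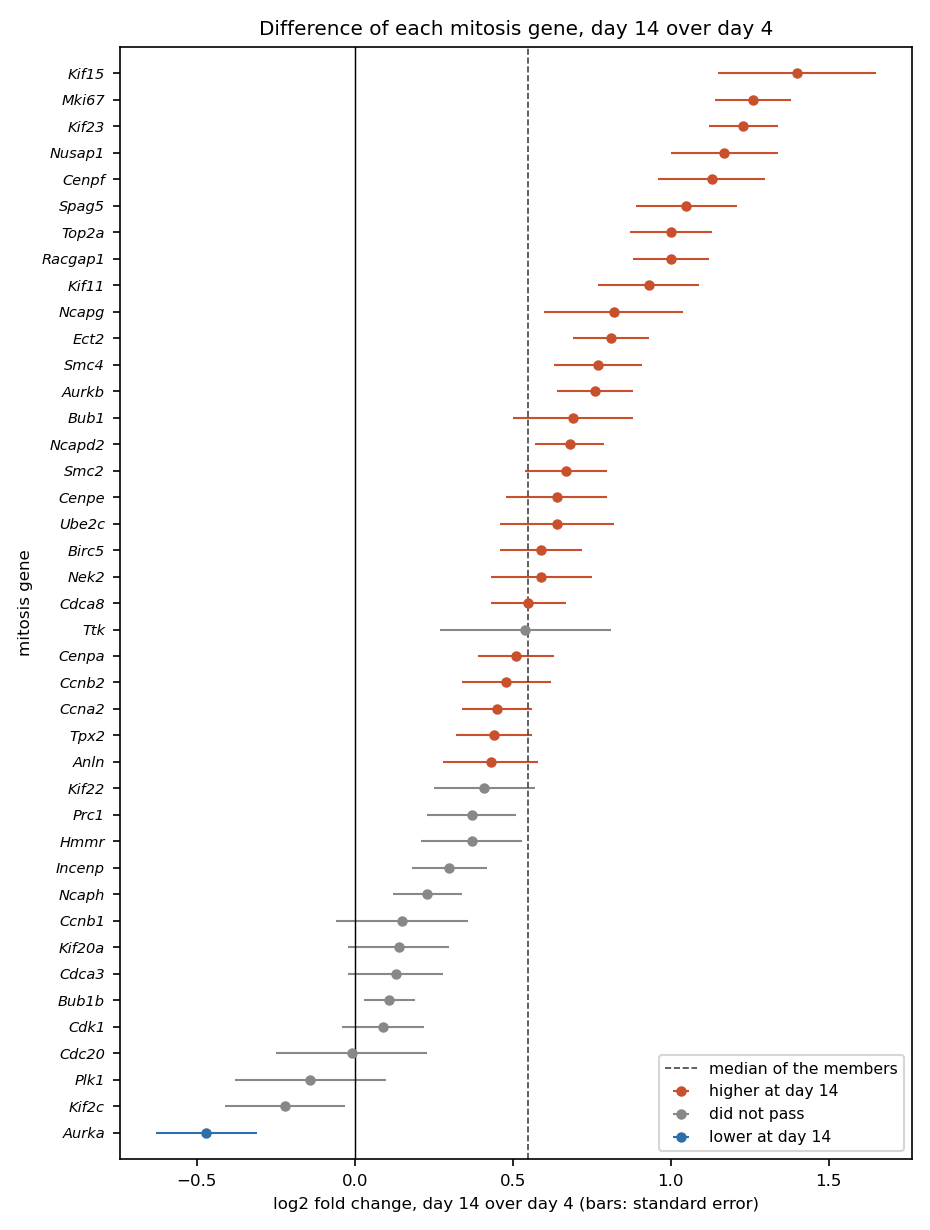
Points are log2 fold changes of day 14 over day 4 with standard errors as bars, ordered by size and coloured by whether the gene passed an adjusted p of 0.05 in edgeR's quasi-likelihood test. The dashed line is the median of the 41 genes, 0.55, and Aurka is the only gene of the 41 called lower.

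Promoters of 4 of the genes are shown because they cover the range of outcomes: Mki67 and Ccnb2 were higher at day 14, Cdk1 did not pass and Aurka was lower. Each is the RefSeq window of 250 bases before to 50 bases after the transcription start on GRCm38.p6, written 5′ to 3′ on the strand of the gene, which is the minus strand for all 4. Capitals mark CCAAT boxes (CCAAT or ATTGG on the other strand) and CHR-type elements, short for cell cycle genes homology region (TTTGAA or TTTAAA or TTCGAA, on either strand), both known from promoters of genes expressed in late cell cycle phases. A match is a description of the letters and not a binding site. The windows lie at chr7:135716330-135716629 (Mki67), chr9:70421505-70421804 (Ccnb2), chr10:69352863-69353162 (Cdk1) and chr2:172370521-172370820 (Aurka).
Mki67: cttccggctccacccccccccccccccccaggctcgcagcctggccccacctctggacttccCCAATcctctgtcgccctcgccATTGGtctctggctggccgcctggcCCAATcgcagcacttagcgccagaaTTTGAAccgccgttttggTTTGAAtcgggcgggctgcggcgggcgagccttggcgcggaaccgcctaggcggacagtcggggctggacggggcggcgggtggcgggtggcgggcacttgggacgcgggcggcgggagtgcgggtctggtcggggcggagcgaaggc
Ccnb2: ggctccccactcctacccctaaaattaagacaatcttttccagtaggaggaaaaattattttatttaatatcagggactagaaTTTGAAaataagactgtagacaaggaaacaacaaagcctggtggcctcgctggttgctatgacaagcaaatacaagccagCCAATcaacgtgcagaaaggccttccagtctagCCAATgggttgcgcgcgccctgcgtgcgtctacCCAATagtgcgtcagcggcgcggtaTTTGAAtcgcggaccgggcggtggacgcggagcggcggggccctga
Cdk1: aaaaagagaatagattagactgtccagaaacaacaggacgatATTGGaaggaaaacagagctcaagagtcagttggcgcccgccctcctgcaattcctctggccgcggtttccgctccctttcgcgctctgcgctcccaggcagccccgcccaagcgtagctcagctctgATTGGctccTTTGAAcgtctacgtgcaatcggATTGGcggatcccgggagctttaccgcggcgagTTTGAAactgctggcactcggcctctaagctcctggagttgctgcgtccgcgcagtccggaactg
Aurka: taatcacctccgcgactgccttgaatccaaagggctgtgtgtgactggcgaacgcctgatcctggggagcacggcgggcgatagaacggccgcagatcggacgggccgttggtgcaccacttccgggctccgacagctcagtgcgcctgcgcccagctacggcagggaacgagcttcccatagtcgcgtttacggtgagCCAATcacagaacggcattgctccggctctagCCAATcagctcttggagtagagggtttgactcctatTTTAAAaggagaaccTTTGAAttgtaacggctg

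Proteins of chromosome structure gave the group with the highest median, 0.77, and 6 of its 7 genes were higher at day 14. Mki67 encodes Ki-67, which coats the surface of mitotic chromosomes and is the usual marker of cycling cells (chromosome 7, 135689784 to 135716450, GRCm38). It had 285.5, 258.8, 199.2, 284.7 and 248.4 CPM in the day 14 libraries, replicates 1 to 5, against 111.5, 118.3, 89.6 and 106.1 CPM in the day 4 libraries, replicates 1 to 4. The groups were far apart: the lowest day 14 library, replicate 3, lay well above the highest day 4 library. The mean was 255.3 ± 35.3 CPM (SD, n = 5) at day 14 and 106.4 ± 12.3 CPM (SD, n = 4) at day 4, a log2 fold change of 1.26 (SE 0.12, adjusted p = 1.76e-05). Per kilobase of exon, Mki67 had 25.4 CPM at day 14, close to the 25.3 of Smc4, against 10.6 and 14.9 at day 4, so per length it was about level with Smc4 at day 14 and below it at day 4. That order was not tested.

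Top2a encodes topoisomerase II alpha, which untangles sister DNA. It had 101.6, 108.9, 76.5, 113.0 and 97.2 CPM at day 14, against 47.0, 61.2, 43.0 and 47.1 CPM at day 4. Its groups did not overlap, day 14 replicate 3 and day 4 replicate 2 being the closest libraries, and its log2 fold change was 1.00 (SE 0.13, adjusted p = 0.000143). Smc2 and Smc4 are the ATPase subunits that condensin I and condensin II share. Smc4 averaged 131.9 ± 23.3 CPM at day 14 and 77.4 ± 11.7 CPM at day 4 (log2 fold change 0.77, SE 0.14), and Smc2 averaged 54.3 ± 9.43 and 34.2 ± 3.94 CPM at the same times (0.67, SE 0.13), with adjusted p of 0.00146 and 0.00238. The 3 subunits found only in condensin I were Ncapd2, Ncapg and Ncaph. Ncapd2 was among the most even genes at day 14, with 31.3, 33.9, 32.2, 30.1 and 32.4 CPM, against 16.6, 19.8, 18.5 and 24.7 CPM at day 4, a log2 fold change of 0.68 (SE 0.11, adjusted p = 0.000731). Ncapg was higher by a log2 fold change of 0.82 (SE 0.22, adjusted p = 0.0147), but its day 14 replicate 3, at 10.3 CPM, lay below day 4 replicate 2, at 11.7 CPM. Part of the exons of Ncapg, 13.4%, overlaps Lcorl on the other strand, and its deposited counts were not whole numbers, so its level is uncertain. Ncaph, the kleisin of the complex, had 12.6 to 15.7 CPM at day 14 and 10.9 to 13.6 CPM at day 4 and did not pass (0.23, SE 0.11, adjusted p = 0.130).

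All 3 centromere and kinetochore genes were higher at day 14, with a median of 0.64. Cenpf, a large kinetochore protein, differed most. It had 18.1, 17.8, 12.1, 15 and 15.1 CPM at day 14, against 4.76, 8.01, 7.67 and 7.93 CPM at day 4, a log2 fold change of 1.13 (SE 0.17, adjusted p = 0.00042). Day 4 replicate 1 was far below the other day 4 libraries for this gene, and the groups did not overlap. Cenpe, the kinesin that moves chromosomes to the spindle equator, averaged 21.6 ± 3.78 CPM at day 14 and 13.9 ± 2.98 CPM at day 4 (0.64, SE 0.16, adjusted p = 0.011). Cenpa, the histone H3 variant that marks the centromere, averaged 54.8 ± 7.88 CPM at day 14 and 38.4 ± 5.1 CPM at day 4 (0.51, SE 0.12, adjusted p = 0.0076). For Cenpe and Cenpa the groups overlapped, because day 14 replicate 3 fell below day 4 replicate 2.

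Among 8 spindle motors and microtubule proteins, 5 were higher at day 14 and 3 did not pass, with a median of 0.68. Kif15, a kinesin that crosslinks spindle microtubules, had the largest log2 fold change of the 41 genes (chromosome 9, 122951081 to 123018733, GRCm38). It had 17.1, 14.5, 9.79 and 19 CPM in day 14 replicates 1 to 4, against 3.33, 6.64, 5.69 and 7.08 CPM at day 4. The groups did not overlap, the spread within each was wide, and the log2 fold change was 1.4 (SE 0.25, adjusted p = 0.00165). Kif11 encodes Eg5, the motor that pushes spindle poles apart. It averaged 25.0 ± 4.57 CPM at day 14 and 13.1 ± 2.43 CPM at day 4 (0.93, SE 0.16, adjusted p = 0.000919). Spag5 encodes astrin, a spindle and kinetochore protein, and Nusap1 a protein that bundles spindle microtubules.

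Spag5 had 8.79 to 11.7 CPM at day 14 and 3.67 to 5.93 CPM at day 4, without overlap (1.05, SE 0.16, adjusted p = 0.000538). Nusap1 had 11.4 to 20.0 CPM at day 14 and 5.94 to 9.03 CPM at day 4, also without overlap (1.17, SE 0.17, adjusted p = 0.000337). Its counts were not whole numbers and 4.2% of its exons overlap Oip5, another gene of mitosis, on the other strand. Tpx2, which activates Aurora A and nucleates spindle microtubules, averaged 17.3 ± 1.96 CPM at day 14 and 12.8 ± 1.89 CPM at day 4 (0.44, SE 0.12, adjusted p = 0.0187). Its adjusted p was 0.0527 without day 4 replicate 1 and 0.0691 without day 4 replicate 3.

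The other 3 genes of this group missed the threshold. Hmmr, a spindle pole protein first described as a hyaluronan receptor, had 8.46 to 13.3 CPM at day 14 and 7.4 to 11.6 CPM at day 4 (0.37, SE 0.16, adjusted p = 0.103). Kif22, a kinesin that binds chromosome arms, had 5.68 to 8.76 CPM at day 14 and 4.63 to 6.2 CPM at day 4 (0.41, SE 0.16, adjusted p = 0.0712), and the annotation lists a pseudogene copy of it, so its level is uncertain. Leaving out 1 library moved both past the threshold: without day 4 replicate 2 the adjusted p was 0.0208 for Hmmr and 0.031 for Kif22, and without day 14 replicate 3 it was 0.0334 for Hmmr. Kif2c encodes MCAK, a kinesin that takes microtubules apart rather than walking on them. It had 3.03 to 4.6 CPM at day 14 and 3.33 to 5.39 CPM at day 4, with a log2 fold change of -0.22 (SE 0.19, adjusted p = 0.404).

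Of 6 midzone and cytokinesis genes, 4 were higher at day 14, with a median of 0.62. Kif23 and Racgap1 encode the kinesin and the GTPase-activating subunit of centralspindlin, which bundles the midzone and positions the furrow. Kif23 had 26.9, 28.2, 22.3 and 26.7 CPM in day 14 replicates 1 to 4, against 10.1, 12.5, 10.3 and 11.5 CPM at day 4. Racgap1 had 28.5, 32.0, 25.3, 30.9 and 28.1 CPM at day 14, against 10.9, 15.5, 15.2 and 16.0 CPM at day 4. Neither gene overlapped between the times. The log2 fold change was 1.23 for Kif23 (SE 0.11, adjusted p = 2.51e-05) and 1.00 for Racgap1 (SE 0.12, adjusted p = 9.99e-05). Ect2, the exchange factor that centralspindlin recruits to activate RhoA, averaged 15.1 ± 1.69 CPM at day 14 and 8.69 ± 1.05 CPM at day 4 (0.81, SE 0.12, adjusted p = 0.000461).

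Anln encodes anillin, the scaffold of the contractile ring. It averaged 22.7 ± 2.2 CPM at day 14 and 16.9 ± 4.5 CPM at day 4 (0.43, SE 0.15, adjusted p = 0.047), with day 4 replicate 2, at 23.5 CPM, inside the day 14 range. This call did not survive leaving out day 4 replicate 1, 3 or 4 or day 14 replicate 1, 2, 4 or 5, with adjusted p of 0.0547 to 0.147. Prc1, the microtubule bundler of the midzone, had 12.8 to 20.9 CPM at day 14 and 11.7 to 16.1 CPM at day 4 and did not pass (0.37, SE 0.14, adjusted p = 0.0664), but did without day 4 replicate 2 (0.0303) or without day 14 replicate 3 (0.0122). Of its exons, 11.1% overlap Rccd1 on the other strand. Kif20a, the kinesin that carries the chromosomal passenger complex to the midzone, had 8.23 to 13.6 CPM at day 14 and 7.87 to 11.5 CPM at day 4 (0.14, SE 0.16, adjusted p = 0.551). Of its exons, 29.3% overlap Cdc23 on the other strand and its counts were not whole numbers, so its level is uncertain.

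The chromosomal passenger complex corrects wrong attachments of chromosomes and then moves to the midzone, and 3 of its 4 genes were higher at day 14. Aurkb, its kinase, had 10.5, 13.4, 10.9, 12.6 and 12.4 CPM at day 14, against 6.83, 6.28, 7.19 and 7.87 CPM at day 4. All day 14 libraries were above all day 4 libraries, with a log2 fold change of 0.76 (SE 0.12, adjusted p = 0.000538). Birc5 encodes survivin and Cdca8 borealin, which together dock the complex at the centromere. Birc5 had 10.1 to 13.9 CPM at day 14 and 7.04 to 8.91 CPM at day 4 (0.59, SE 0.13, adjusted p = 0.00581). Cdca8 had 9.75 to 11.8 CPM at day 14 and 6.57 to 8.7 CPM at day 4 (0.55, SE 0.12, adjusted p = 0.00431). Both were without overlap. Incenp, the scaffold that activates the kinase, had 34.8, 38.7, 40.3, 34.9 and 38.3 CPM at day 14, against 24.7, 26.3, 32.8 and 36.9 CPM at day 4. Day 4 replicate 4 lay inside the day 14 range and the gene did not pass (0.30, SE 0.12, adjusted p = 0.0697), but it did without that library (adjusted p = 0.0253).

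The mitotic kinases and checkpoint genes were mixed, with 2 of 6 higher at day 14, 1 lower and a median of 0.32. Aurka encodes Aurora A, which matures centrosomes and builds the spindle poles (chromosome 2, 172356190 to 172370886, GRCm38). It had 4.29, 3.16, 5.12, 3.47 and 4.13 CPM at day 14, against 6.22, 5.22, 5.42 and 5.54 CPM at day 4. The groups touched closely without overlap, day 14 replicate 3 lying just under day 4 replicate 2. The log2 fold change was -0.47 (SE 0.16, adjusted p = 0.044). This call was lost when day 4 replicate 1, 3 or 4 or day 14 replicate 1, 2, 4 or 5 was left out, with adjusted p of 0.0696 to 0.101, and under 7 of the 12 other settings, though the direction stayed negative in all of them.

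Plk1, the Polo kinase that acts from mitotic entry to cytokinesis, had 2.8, 4.57, 4.18, 2.19 and 3.96 CPM at day 14, against 2.55, 4.28, 4.44 and 4.21 CPM at day 4. The ranges overlapped widely (log2 fold change -0.14, SE 0.24, adjusted p = 0.69). Nek2, a centrosome kinase, was even at day 14, with 5.32 to 6.15 CPM, against 3.02 to 4.75 CPM at day 4, without overlap (0.59, SE 0.16, adjusted p = 0.0133). Ttk encodes MPS1, the kinase that starts the spindle checkpoint. It had the fewest counts of the 41 genes, with 3.35, 3.8, 2.18 and 2.51 CPM in day 14 replicates 1 to 4 and 1.43, 2.87, 1.9 and 1.99 CPM at day 4, and did not pass (0.54, SE 0.27, adjusted p = 0.146).

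Bub1 and Bub1b encode related checkpoint proteins, the second known as BUBR1. Bub1 had 14.2, 14.9, 8.68, 15.2 and 12.8 CPM at day 14, against 7.35, 10.5, 6.17 and 8.7 CPM at day 4. Only day 14 replicate 3 fell inside the day 4 range, and the log2 fold change was 0.69 (SE 0.19, adjusted p = 0.0154). Bub1b was the most even of the 41 genes, with 18.5 to 20.2 CPM at day 14 and 16.2 to 18.8 CPM at day 4 (0.11, SE 0.08, adjusted p = 0.355). Without day 4 replicate 3 the adjusted p was 0.0536 for Bub1 and 0.0528 for Nek2.

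The cyclins and CDK1 gave a median of 0.30, with 2 of 4 genes higher at day 14. Ccna2, cyclin A2, which acts in S phase and early mitosis, had 20.9, 22.3, 17.3, 22.8 and 21.4 CPM at day 14, against 15.1, 17.4, 14.6 and 14.2 CPM at day 4. Only day 14 replicate 3 and day 4 replicate 2 crossed (log2 fold change 0.45, SE 0.11, adjusted p = 0.00693). Its counts were not whole numbers and 12.5% of its exons overlap Exosc9 on the other strand. Ccnb2, 1 of the mitotic B-type cyclins, had 12.3, 12.6, 10.9 and 15.3 CPM in day 14 replicates 1 to 4, against 7.65, 9.66, 8.65 and 10.6 CPM at day 4. The groups did not overlap (0.48, SE 0.14, adjusted p = 0.0269), but the call was lost without day 4 replicate 1 or 3 or day 14 replicate 1, 2 or 4, with adjusted p of 0.0554 to 0.0816.

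Ccnb1, cyclin B1, which is the other B-type cyclin of the list, had 2.89 to 4.79 CPM at day 14 and 2.94 to 4.87 CPM at day 4, almost the same range (0.15, SE 0.21, adjusted p = 0.602). The annotation lists pseudogene copies of Ccnb1 and Ccnb2, so the levels of both are uncertain. Cdk1, the kinase that these cyclins activate, had 14.6, 13.2, 11.3, 15.6 and 13.5 CPM at day 14, against 12.5, 15.6, 11.4 and 12.0 CPM at day 4. The highest values of the 2 times were the same to the digits given, and the gene did not pass (0.09, SE 0.13, adjusted p = 0.63). Per kilobase of exon, Ccnb2 had 8.34 CPM at day 14 and 5.97 at day 4, Ccna2 5.13 and 3.76, Cdk1 2.77 and 2.61, and Ccnb1 0.95 and 0.854, so the order of the 4 genes per length was the same at both times.

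Among the genes of mitotic exit and ubiquitin transfer, 1 of 3 was higher at day 14. Ube2c encodes the ubiquitin-conjugating enzyme that works with the anaphase-promoting complex. It had 5.64, 7.26, 6.59, 7.59 and 8.53 CPM at day 14, against 4.19, 4.08, 3.75 and 6.02 CPM at day 4. Day 4 replicate 4 lay above day 14 replicate 1 (log2 fold change 0.64, SE 0.18, adjusted p = 0.0162), and without day 4 replicate 3 the adjusted p was 0.0633. Of its exons, 22.8% overlap Tnnc2 on the other strand. Cdc20, the activator of the anaphase-promoting complex that the checkpoint holds back, had 3.72, 3.03, 4.27, 4.11 and 3.64 CPM at day 14, against 1.99, 3.57, 3.88 and 5.48 CPM at day 4. The day 4 libraries spanned the whole day 14 range (-0.01, SE 0.24, adjusted p = 0.98). Cdca3, known as trigger of mitotic entry 1, had 7.12 to 8.8 CPM at day 14 and 5.94 to 9.67 CPM at day 4 (0.13, SE 0.15, adjusted p = 0.526).

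Genes of 1 family or complex did not all receive the same call, which by itself does not show that they differed from each other. For 6 pairs, picked by family or complex after the values were seen, the log2 ratio of counts within each library was set side by side. Aurkb over Aurka gave 1.58 ± 0.40 (SD, n = 5) at day 14 and 0.33 ± 0.16 (SD, n = 4) at day 4, a difference of 1.25 without overlap, with p = 0.0159 in an exact two-sided permutation test, the smallest that 5 against 4 libraries can give. Kif23 over Kif20a gave 1.35 ± 0.27 at day 14 and 0.17 ± 0.14 at day 4 (n = 4 each), a difference of 1.17 without overlap, with an exact p = 0.0286, the smallest that 4 against 4 can give. Bub1 over Bub1b gave -0.57 ± 0.30 at day 14 and -1.15 ± 0.25 at day 4, a difference of 0.58 (exact p = 0.0317). Adjusted over the 6 pairs, these 3 had p = 0.0635 in the exact test, so no pair passed a threshold of 0.05. The adjustment does not cover the choice of pairs after the values were seen, so these p-values are descriptive only. For Aurkb over Aurka the separation was fixed beforehand, since neither gene overlapped between the times and they went in opposite directions. The differences were 0.34 for Ccnb2 over Ccnb1, 0.51 for Kif15 over Kif11 and 0.11 for Smc4 over Smc2, with adjusted exact p of 0.129, 0.159 and 0.159. The levels of Kif20a (overlap with Cdc23) and of Ccnb1 and Ccnb2 (pseudogene copies) are uncertain, and so are the ratios that hold them.

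Within each day the same library was often at an end of the range, as the plot of each gene relative to its mean shows. Over the 37 genes that every library covers, day 14 replicate 3 was the lowest day 14 library for 26, and day 4 replicate 2 the highest day 4 library for 24. The 37 genes summed to 1117.9, 1116.5, 854.8, 1162.0 and 1022.3 CPM at day 14, against 587.0, 719.2, 568.6 and 630.1 CPM at day 4. Every day 14 sum was above every day 4 sum, and this also held with Mki67 taken out of the sums, at 655.6 to 877.3 CPM for day 14 and 475.5 to 600.8 CPM for day 4. The coefficient of variation between libraries had a median of 14.4% over the 41 genes at day 14 (3.43% for Bub1b to 28.4% for Plk1) and of 16.6% at day 4 (6.76% for Bub1b to 38.4% for Cdc20).

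**Figure D3:**
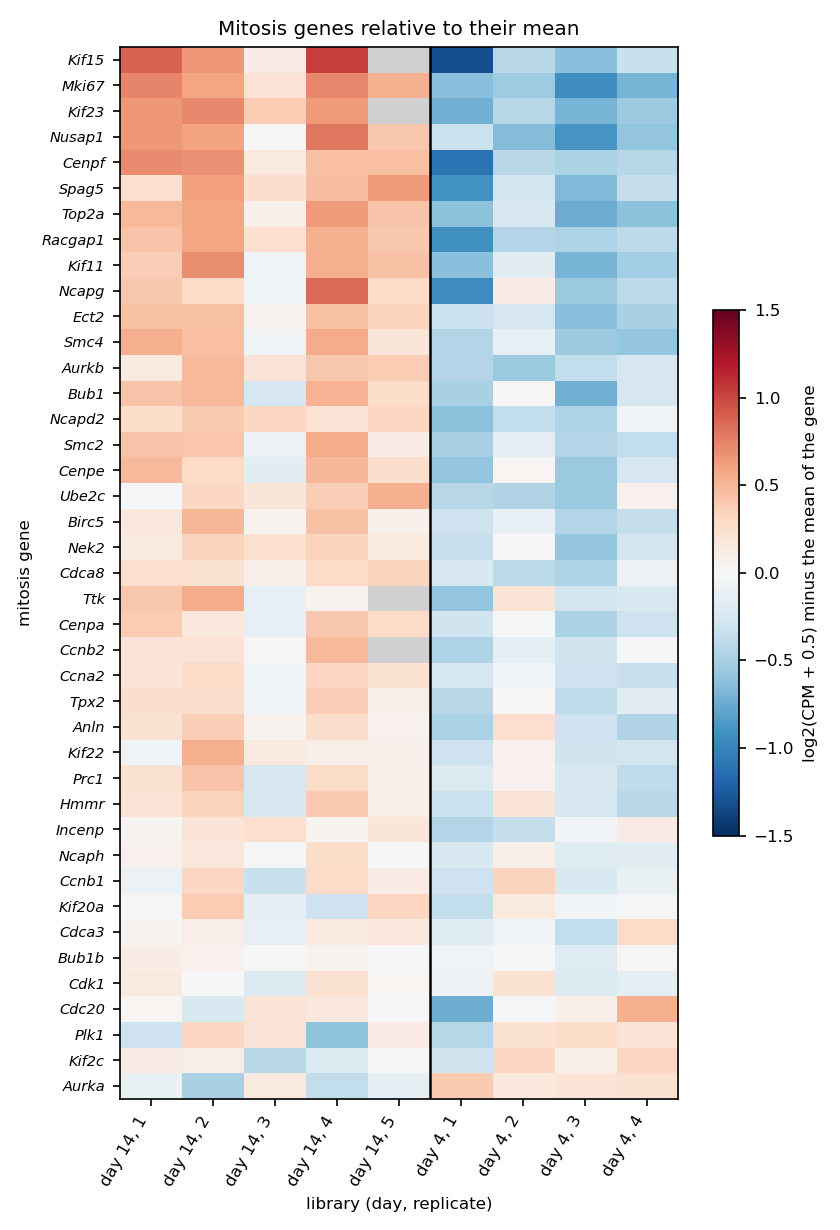
Rows are the 41 mitosis genes in order of log2 fold change, columns the 5 day 14 and the 4 day 4 libraries, and the colour gives log2(CPM + 0.5) minus the mean of the gene (red above it, blue below it). Grey marks the 4 genes without counts in day 14 replicate 5; day 14 replicate 3 is the palest of the day 14 columns, with a summed level of 854.8 CPM.

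Markers of other cells also differed between the libraries, and their part in the results on the mitosis genes was not tested. The sums leave out markers that day 14 replicate 5 does not cover. The 5 neutrophil markers that every library covers summed to 266.1, 151.5, 1460.8, 248.3 and 653.2 CPM at day 14, against 1564.9, 511.8, 555.3 and 591.0 CPM at day 4, so day 14 replicate 3, the lowest of its day for the mitosis genes, was the highest of its day for neutrophil transcripts. None of the 6 neutrophil markers tested passed. Of 8 conventional dendritic cell markers, 7 were higher at day 14. The exception, Flt3, had 12.1 to 21.9 CPM at day 14 and 12.7 to 20.1 CPM at day 4 and did not pass. The 7 in the sum (all but Xcr1) gave 444.0 to 530.4 CPM at day 14 and 210.4 to 248.8 CPM at day 4. Most of this sum was Itgax, Cd209a and Ccr7. Fibroblast markers, 7 of 10 of which were lower at day 14, summed to 5875.7 to 9574.4 CPM at day 14 and 10838.2 to 21642.1 CPM at day 4, day 4 replicate 2 being the highest.

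Defining markers of lymphocytes were at or near 0. Summed levels of the T and NK cell list were 180.9 to 394.6 CPM at day 14 and 111.4 to 192.8 CPM at day 4, nearly all of it Il7r and Cd4, while Cd3d, Cd3e and Cd3g stayed at or under 0.157 CPM in every library that covers them. The B cell list summed to 9.56 to 13.1 CPM at day 14 and 5.27 to 7.52 CPM at day 4, most of it Cd79b, with Pax5 at 0 in 7 of 9 libraries. Of the keratinocyte markers, 5 of 6 tested were higher at day 14, with sums of 10.7 to 17.3 CPM at day 14 and 1.38 to 6.79 CPM at day 4. Of the eosinophil markers, the 4 tested were all higher at day 14. Ccr3 had 19.1 to 46.1 CPM at day 14 and 8.3 to 11.6 CPM at day 4. The others summed to 25.9 to 33.2 CPM at day 14 and 7.85 to 13.7 CPM at day 4. Epx, also on this list, was not tested, being at 0 in 6 of 9 libraries and at most 0.0625 CPM. Both Langerhans cell markers were higher, with sums of 7.21 to 14.3 CPM at day 14 and 2.63 to 4.67 CPM at day 4. Mast cell markers (2 higher and 1 lower of 5 tested) summed to 11.3 to 21.8 CPM at day 14 and 12.8 to 26.4 CPM at day 4. Endothelial markers (3 of 6 higher) summed to 21.5 to 58.5 CPM at day 14 and 27.1 to 31.2 CPM at day 4. Of 4 genes of recruited monocytes, Ccr2 was higher at day 14 and 2, among them Plac8, were lower.

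Genes of the same processes outside the list of 41 were counted in 7 further lists. Of 50 other mitosis genes, 27 were higher and 3 lower at day 14, with a median log2 fold change of 0.62. Those with the lowest adjusted p were Ckap2l (log2 fold change 1.2), a spindle protein, Kif4 (1.05), a chromosome-bound kinesin, and Cit (1.17), the citron kinase of cytokinesis. The 3 lower were Espl1 (-0.40), which encodes separase, and Cdc25b (-0.29) and Cdc25c (-1.02), phosphatases that activate CDK1. Cdc25c had 0.267 to 0.641 CPM at day 14 and 0.692 to 1.02 CPM at day 4. These 3 calls were close to the threshold, with log2 fold changes of -0.49 to -0.31 for Espl1, -0.33 to -0.25 for Cdc25b and -1.19 to -0.90 for Cdc25c when each library was left out in turn. The adjusted p then reached 0.124 for Espl1 (lost without day 4 replicate 3 or 4 or day 14 replicate 1, 2, 4 or 5), 0.0645 for Cdc25b (without day 4 replicate 3 or 4 or day 14 replicate 2 or 4) and 0.0815 for Cdc25c (without day 4 replicate 2, 3 or 4 or day 14 replicate 3, 4 or 5). The most abundant of the list by counts, Ckap5, a microtubule polymerase, averaged 101.9 ± 11.0 CPM at day 14 and 96.1 ± 5.98 CPM at day 4 and did not pass.

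Subunits of the anaphase-promoting complex and its regulators had a median of -0.00, with 1 of 17 higher and 1 lower. Fbxo5, which encodes the inhibitor EMI1, was higher (1.10, SE 0.22), and Fzr1, the activator CDH1 of late mitosis and G1, was lower (-0.40, SE 0.11). Anapc1, the largest subunit and the most abundant by counts, had 105.8 to 116.1 CPM at day 14 and 122.2 to 128.3 CPM at day 4 (-0.18, adjusted p = 0.0609). Of 17 inner centromere proteins, 5 were higher and none was lower at an adjusted p under 0.05 in edgeR's test, with a median of 0.35. Among those higher were Mis18a (0.51), Cenpq (0.87), Cenpi (0.78) and Cenpk (0.98). Cenpc1, the most abundant by counts, did not pass (0.16). Calls were lost for Fzr1 without day 4 replicate 1 or 4 or day 14 replicate 1 or 2 (adjusted p up to 0.0578), and for Cenpk without day 4 replicate 1, 3 or 4 or day 14 replicate 1 or 4 (up to 0.0714).

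Of 14 genes of condensin II and cohesin, 5 were higher and 1 lower, with a median of 0.20. Ncapg2, the condensin II counterpart of Ncapg, was lower, with 62.0 to 80.0 CPM at day 14 and 107.3 to 169.8 CPM at day 4 (-0.92, SE 0.13, adjusted p = 0.000247), whereas the condensin II subunit Ncapd3 was higher (0.49, SE 0.08). The other 4 higher were Smc1a (0.23), a core subunit of cohesin, and Esco2 (1.02), Pds5b (0.32) and Cdca5 (0.59), which regulate it. Nipbl, the cohesin loader and most abundant of the list by counts, did not pass (0.20). Leaving out day 4 replicate 1 or 3 or day 14 replicate 1 or 2 ended the calls of Smc1a, Pds5b and Cdca5, day 4 replicate 4 or day 14 replicate 4 also those of Smc1a and Pds5b, and day 4 replicate 2 or day 14 replicate 5 that of Cdca5, with adjusted p up to 0.142, 0.108 and 0.084.

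Of 20 genes of the E2F, DREAM and FOXM1 regulators, which control transcription of cell cycle genes, 7 were higher and none was lower in edgeR's test, with a median of 0.23. Tfdp2 (1.02), a partner of E2F factors, E2f7 (1.01), a repressor, and E2f2 (0.68), an activator, had the lowest adjusted p, and Rb1 (0.27), the most abundant by counts, was also higher. Among 14 tested of 15 G1 cyclins, CDKs and inhibitors, 4 were higher and 3 lower, with a median of 0.02. Ccnd1, cyclin D1, had 70.0 to 79.6 CPM at day 14 and 26.0 to 34.4 CPM at day 4 (1.29, SE 0.09, adjusted p = 1.61e-06), and Ccnd2 (0.69) and the CDK inhibitors Cdkn2c (1.10) and Cdkn1c (1.00) were higher as well. The lower genes were Cdk4 (-0.27), Cdk6 (-0.38) and Cdkn1a (-0.50), which encodes the inhibitor p21 and had 405.2 to 591.5 CPM at day 14 and 604.2 to 812.2 CPM at day 4. The call of Rb1 was lost without any 1 of the 4 day 4 libraries or without day 14 replicate 1, 2 or 4 (adjusted p up to 0.131), that of Cdk4 without day 4 replicate 4 or day 14 replicate 1 or 2 (up to 0.0607) and that of Cdk6 without day 4 replicate 1, 3 or 4 or day 14 replicate 1, 2 or 5 (up to 0.0819).

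Of 41 DNA replication genes, 14 were higher and 1 lower, with a median of 0.29. Pola1 (1.12) and Pole (1.11), catalytic subunits of replicative polymerases, and Lig1 (0.56), the ligase of Okazaki fragments, had the lowest adjusted p. Cdt1 (-0.76), the licensing factor of origins, was lower. Pcna, the sliding clamp and most abundant by counts, averaged 126.5 ± 19 CPM at day 14 and 103.4 ± 12.9 CPM at day 4 and did not pass (0.29, adjusted p = 0.086), but did without day 14 replicate 3 or 5 (adjusted p of 0.0407 to 0.0456). Differences between the lists were not tested, and the counts of each are read beside the 16.1% and 14.9% of all genes called higher and lower.

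**Figure D4:**
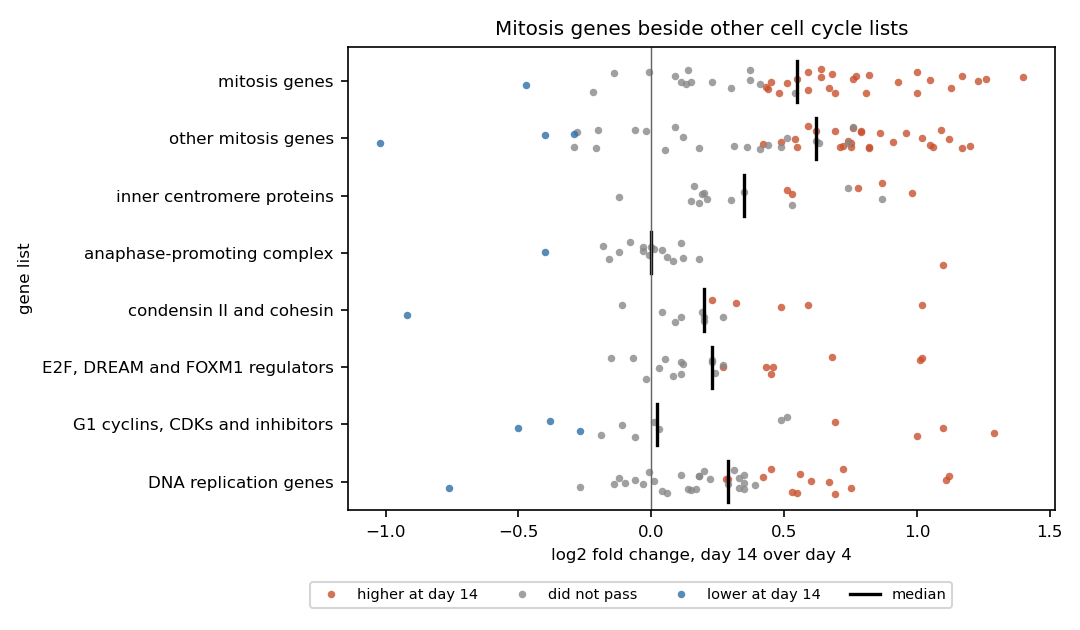
Each point is the log2 fold change of a gene, day 14 over day 4, for the 41 mitosis genes and 7 further cell cycle lists, coloured by whether it passed an adjusted p of 0.05 in edgeR's quasi-likelihood test; points are spread vertically for legibility only. Black bars are medians, 0.55 for the mitosis genes, 0.62 for the other mitosis genes and -0.00 for the anaphase-promoting complex.

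The promoter windows of the list were searched for both motifs. RefSeq windows were found for 35 of the 41 genes, 37 windows in all, since Ect2 and Prc1 have 2 starts each. Ccna2, Tpx2, Smc4, Aurkb, Kif20a and Incenp had no entry. A CHR-type element was present in 34 of the 37 windows (91.9%), against 28.8% of all 32851 windows of the same length, and TTTGAA alone in 81.1% against 17.9%. The comparison windows belong to 27025 genes, more than the 18303 counted here, and were not matched to the list by expression. CCAAT, on either strand, was present in 31 of 37 windows (83.8%) against 37.4%, and at 2 or more places in 56.8% against 11.7%. By their letters, a CCAAT box and a CHR-type element can share at most 1 base at their ends. In the nearest 150 bases, from 100 before to 50 after the start, CHR-type elements were in 83.8% against 13.4% of windows.

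In the windows printed above, Mki67 had TTTGAA beginning 116 and 98 bases before the start and 3 CCAAT boxes upstream of both. Ccnb2 had 3 CCAAT boxes beginning 87, 54 and 21 bases before the start. TTTGAA was present in the Ccnb2 window upstream of all these boxes, and again beginning at base 5 after the start. Cdk1, which did not pass, had TTTGAA at 71 and 15 bases before the start with 3 CCAAT boxes, and Aurka, the lower gene, had CCAAT boxes at 51 and 19 bases before the start with TTTAAA and TTTGAA after it. The motifs were thus found in windows of genes with each outcome. Of the 22 higher genes with a window, 20 had a CHR-type element and 18 CCAAT. Of the 12 that did not pass, 11 had a CHR-type element and 10 CCAAT. Nusap1, which was higher, and Ncaph, which did not pass, had neither in their windows, and Nek2 had CCAAT only.

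**Figure D5:**
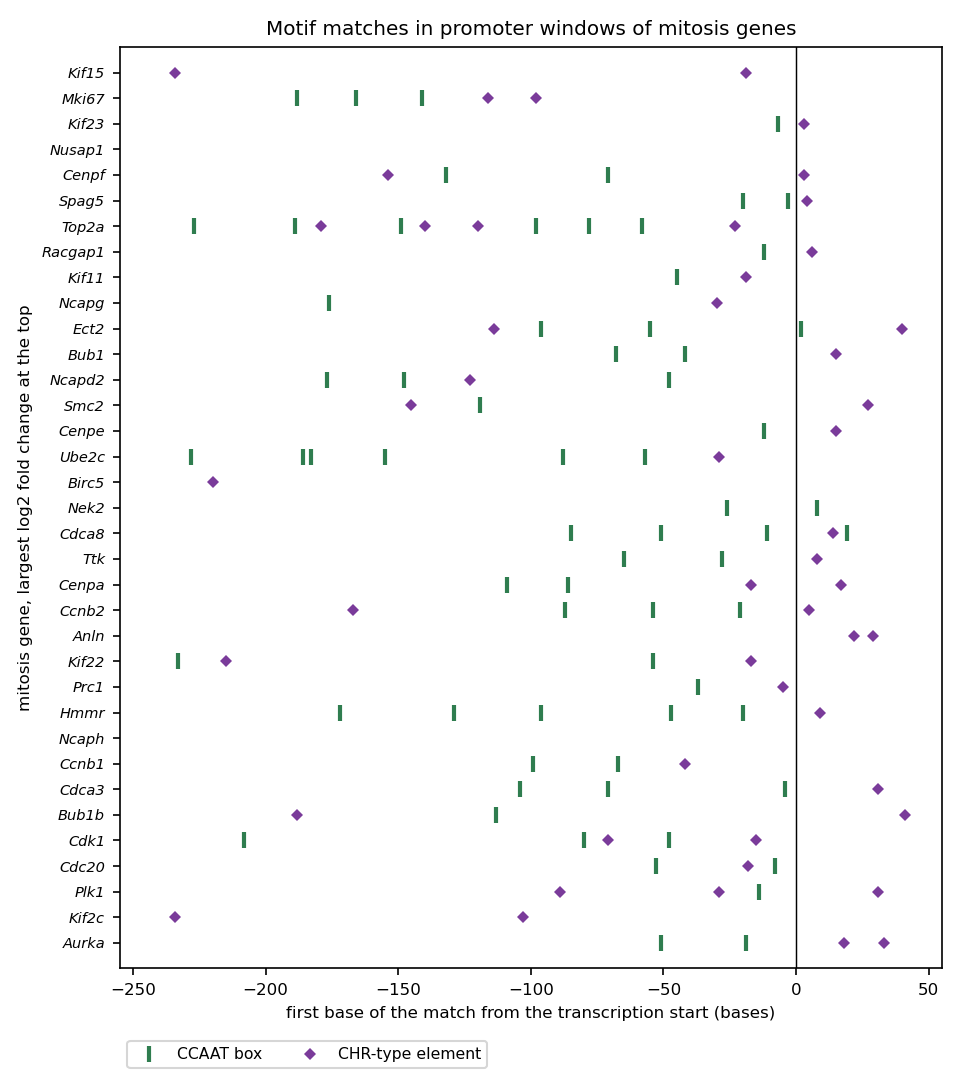
Rows are the 35 mitosis genes with a RefSeq promoter window, ordered by log2 fold change with the largest at the top, and the horizontal axis gives bases from the transcription start (window of 250 before to 50 after; for Ect2 and Prc1 the first of 2 windows). Bars mark CCAAT boxes and diamonds CHR-type elements on either strand, which lie mostly close to the start in genes from the top to the bottom of the plot.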

How the data were processed

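RNA-seq of sorted wound macrophages was analysed from a table of estimated counts, which the authors deposited without normalization for 18303 gene symbols in 9 libraries. A mean of 17.2% of the values per library were not whole numbers, and all were rounded. A second deposited table holds normalized signal values for 13673 genes, in which each library is rescaled and a 0 appears as 1. It was used only to see that Ccnb2, Ttk, Kif15 and Kif23 are written as 1 in day 14 replicate 5. Per the labels' protocols, libraries were made with a TruSeq v2 kit, which does not mark strand, so reads of genes that overlap on opposite strands are not separable. The submitters' processing notes name HISAT2 2.1.0, Partek 6.6, SAMtools 1.4, CASAVA 1.8, DESeq2 and the build mm10. The annotation and the role of each tool are not given in the sources used here.

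Gene positions were taken from RefSeq (17102 genes by symbol, 1098 by an older name, 103 without a match), and exon lengths and overlaps from GENCODE M21, both on GRCm38. Genes were tested with edgeR 4.0.16 in R 4.3.3 (TMM, filterByExpr, robust quasi-likelihood, two-sided). Library sizes and factors came from the 16784 genes up to the break in day 14 replicate 5, those genes were fitted on 9 libraries and the 1519 genes beyond it on the other 8. All p-values were then adjusted together by Benjamini-Hochberg over 13322 genes, with a threshold of 0.05. Every adjusted p in the text is of this kind unless a pair of genes is named. Standard errors were derived from the F statistic, and CPM are TMM-scaled and relative to the counts up to the break. The 16 pairs of libraries of the same day differed beyond counting noise (chi-square divided by its degrees of freedom, 11.1 to 75.3), so each was counted once.

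Any of the 41 genes may be named. From each further list the 3 genes of lowest adjusted p, the most abundant by counts and any where 5 or fewer passed in 1 direction are named, and from marker lists some of the most abundant or defining genes. Some genes that this rule covers are not reported here. The 41 genes, the lists and the tests were chosen with earlier results of these data known. The alternatives were other scalings, DESeq2 1.42.0, limma-voom (limma 3.58.1), filters, a non-robust dispersion, library size as a covariate, subsets by depth and leaving out each library.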

Additional observations from a re-analysis of the deposited data

Results flagged for a closer look

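For the 41 genes, each day gave a group of 4 or 5 libraries, 82 groups in all, in which the gap between the highest or lowest library and its nearest neighbour was set against the whole range (Dixon's test, 95% level). Chance alone marks about 1 in 20 such groups, and 4 were marked, all of them at day 4. In day 4 replicate 1, Plk1 was at 2.55 CPM, against 4.21 to 4.44 CPM in the other day 4 libraries, Cenpf at 4.76 CPM, against 7.67 to 8.01 CPM, and Racgap1 at 10.9 CPM, against 15.2 to 16.0 CPM. In day 4 replicate 2, Kif22 was at 6.2 CPM, against 4.63 to 4.76 CPM in the others.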

How the results depend on the processing

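The 26 genes called higher stayed positive under all 21 alternatives. The number of the 41 genes called higher was 15 with the 6 shallower libraries alone, where 1031 of all genes were higher and 1045 lower, and 22 to 27 under the settings that use every library. The 3 deeper libraries alone (23 higher) hold only 1 of day 14, whose spread is assumed to be that of the 2 day 4 libraries, so they say little about stability. Leaving out each library in turn gave 20 to 29 genes higher, 0 to 1 lower, a median of 0.47 to 0.63, and 1595 to 2456 higher and 1442 to 2366 lower of all genes. The single lower gene, Aurka, gave a count of 0 under upper-quartile scaling, total counts, no low-count filter, the covariate, all 9 libraries for all genes, and the shallower or deeper libraries alone. With all 9 libraries for all genes, Kif15, Kif23 and Ccnb2 lost their calls, because 1 of their day 14 libraries is then read as 0.

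Some small log2 fold changes turned sign. With the shallower libraries they were -0.09 for Cdk1, 0.12 for Plk1, 0.42 for Cdc20 and -0.07 for Cenpc1. Cdc20 was also 0.02 under upper-quartile scaling, 0.23 with the covariate, 0.22 without day 4 replicate 4, and 0.06 and 0.0 without day 14 replicates 2 and 5, in a range of -0.21 to 0.22 over the single libraries left out. Incenp was -0.02 with the deeper libraries, 1 against 2. None of these passed, and the cause was not tested. Smc1a, called higher in the main fit (0.23), was -0.10 with all 9 libraries for all genes. It lies beyond the break, so 1 of its day 14 libraries is then read as 0. With 5 CPM in at least 4 libraries, 36 of the 41 genes were tested. Of 856 single values of the 41 genes, 781 kept their direction and side of the threshold. No paired analysis was possible because the labels give the days no shared replicate numbers.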
